A study of Arabis alpina with 12 samples.

Results

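The transcription factor genes CUC1, CUC3, KNAT6, RAX1 and RAX2, which mark organ boundaries or help to start axillary meristems, were followed in lateral buds of Arabis alpina. They were the genes that the deposited comparison tables pair with the Arabidopsis thaliana loci AT3G15170, AT1G76420, AT1G23380, AT5G23000 and AT2G36890, and they make up 5 of the 19722 genes of the count table. Each locus was paired with 1 Arabis alpina gene: Aa_G1120 (AALP_AA3G170200) for CUC1, Aa_G111160 (AALP_AA2G206400) for CUC3, Aa_G62430 (AALP_AA1G255300) for KNAT6, Aa_G583140 (AALP_AA8G436100) for RAX1 and Aa_G159790 (AALP_AA4G140100) for RAX2. The files pair names only for genes that the authors listed as changed in at least 1 comparison, so a boundary gene that changed nowhere could not have entered. The 5 genes were therefore certain to differ somewhere, and only the order and pattern of their differences is described here.

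Arabis alpina is a perennial of the same plant family as Arabidopsis thaliana, and polyA RNA of its ecotype Pajares was sequenced in 12 bud libraries. All plants grew for 8 weeks in long days (16 h light at 20 °C, 8 h dark at 18 °C) and then spent 12 weeks of vernalization at 4 °C. Buds came from the dormant zone of the plant, called V2, or from the growing zone, called V3. They were taken when the cold ended (0 d) or once the plants had spent 5 further days in warm long days (5 d). Each of the 4 groups has 3 biological replicates, as the series states, and the number of plants or buds in a library is not given in the sources used here.

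CUC1 and CUC3 encode NAC transcription factors that in Arabidopsis thaliana are active in the narrow band of slowly dividing cells between a meristem and a young organ, where they keep organs apart. Axillary meristems, the starting points of buds, form in the leaf axil within such a boundary, and CUC3 and the MYB genes RAX1 and RAX2 are known there for promoting this step. KNAT6 is a KNOX homeobox gene that in Arabidopsis thaliana acts beside STM in keeping meristem cells undifferentiated and in separating organs. In bulk samples such as these buds, fewer cells of a type and less RNA per cell cannot be told apart.

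Recovered reads per library numbered 18377958 to 22586938 in 11 libraries and 12252622 in V2 0 d replicate 3. That library also held 6553 zeros that other values contradict (886 to 1224 in the others), but none of the 5 genes had a zero in any library. Every gene below is given as normalized counts, which are gene counts divided by 1 factor per library, in the order of replicates 1, 2 and 3. Differences are log2 values from limma on log2(normalized count + 1), with a standard error (SE) and a Benjamini-Hochberg adjusted p over all genes tested. A gene is called at an adjusted p under 0.05.

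When the cold ended, 0 of the 5 genes were called different between the zones by limma, against 3.93% of all genes tested and 11.5% of the listed genes with a homologue, the pool from which the 5 come. At 5 d, 4 of the 5 were lower in the growing zone than in the dormant zone (19.9% of all genes tested and 34.7% of the pool). Over the 5 days in the growing zone, 5 of 5 fell (10.9% and 15.3%). In the dormant zone the genes parted: CUC1 and CUC3 fell (11.3% and 16.9%), RAX2 rose (12.5% and 28.5%), and KNAT6 and RAX1 had no called change. The change over time differed between the zones, with the lower value in V3, for 3 of 5 (3.35% and 7.87%). The lowest of the 4 group means was that of V3 at 5 d for every one of the 5 genes.

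**Figure D1:**
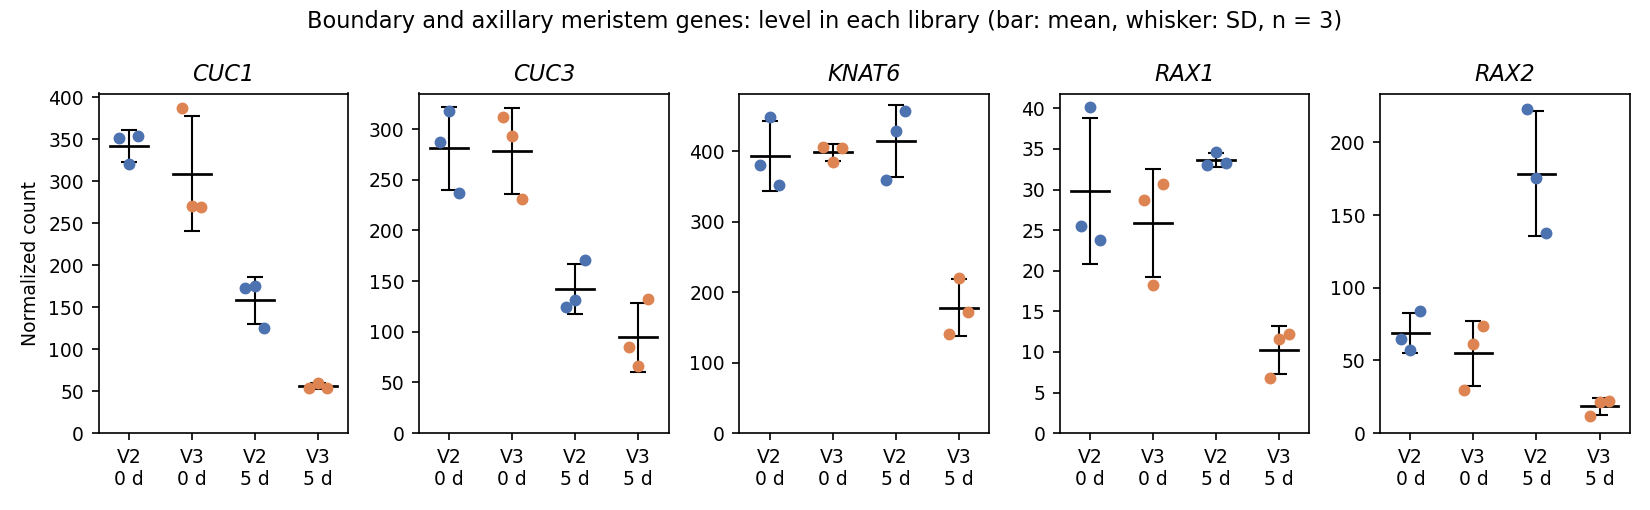
Normalized counts (y axis, from 0) of the 5 genes in each of 12 libraries, by zone and time (x axis); points are libraries, bars means and whiskers SD (n = 3). The V3 libraries at 5 d lie below all others for CUC1, KNAT6, RAX1 and RAX2, while for CUC3 they overlap the V2 libraries at 5 d, and RAX2 is highest in V2 at 5 d.

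CUC1, which acts together with CUC2 in separating organs at the shoot apex of Arabidopsis thaliana, fell in both zones. Its normalized counts were 352, 320 and 353 in V2 at 0 d, where V3 held 387, 270 and 270. After 5 d V2 held 173, 175 and 126, and V3 held 53.6, 60.2 and 54.3. The zones overlapped at 0 d, both zones were lower at 5 d than at 0 d with no overlap, and at 5 d every V3 library was below every V2 library. The group means were 342 ± 18.6 (SD, n = 3), 309 ± 67.9, 158 ± 28.0 and 56.0 ± 3.60 in the same order. The mean fell 5.52-fold in V3, a log2 difference of -2.42 (SE 0.186, limma adjusted p = 2.77e-05). In V2 it fell 2.16-fold, a log2 difference of -1.12 (SE 0.186, limma adjusted p = 0.0037). At 5 d V3 was lower than V2 by 2.82-fold, a log2 difference of -1.47 (limma adjusted p = 0.000531). The fall in V3 exceeded that in V2 by a log2 interaction of -1.30 (SE 0.263, limma adjusted p = 0.0203). That last call ended when V2 5 d replicate 1 or V2 5 d replicate 2 was left out (-1.23 and -1.22, limma adjusted p = 0.0507 and 0.0504).

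CUC3, the NAC gene most closely tied to axillary meristems in Arabidopsis thaliana, followed CUC1 over time but without a called difference between zones. Its normalized counts were 288, 318 and 237 in V2 at 0 d, where V3 held 312, 293 and 231. After 5 d V2 held 124, 132 and 171, and V3 held 84.8, 66.5 and 132. Both zones were lower at 5 d with no overlap with 0 d, and at 5 d V3 replicate 3 lay within the V2 range while V3 replicates 1 and 2 lay below it. The mean fell from 278 ± 42.4 (SD, n = 3) to 94.4 ± 33.8 in V3, a log2 difference of -1.60 (SE 0.259, limma adjusted p = 0.00228). In V2 it fell from 281 ± 41.2 to 142 ± 25.0, a log2 difference of -0.98 (limma adjusted p = 0.0254). The difference between zones at 5 d was -0.63 (95% interval -1.21 to -0.05) and was not called (limma adjusted p = 0.0875). Without V3 5 d replicate 3 it was -0.90 and called (limma adjusted p = 0.0199). The fall in V2 was not called when V2 0 d replicate 1, V2 0 d replicate 2, V2 5 d replicate 1 or V2 5 d replicate 2 was left out (limma adjusted p = 0.0551, 0.0744, 0.0838 and 0.0742), while its size stayed between -1.12 and -0.89 over all 6 libraries left out in turn.

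KNAT6, the meristem homeobox gene, had overlapping values in 3 of the 4 groups and was lower in the growing zone at 5 d. Its normalized counts were 381, 448 and 351 in V2 at 0 d, where V3 held 406, 384 and 405. After 5 d V2 held 359, 428 and 457, and V3 held 140, 221 and 172. The first 3 groups overlapped one another, and every V3 library at 5 d lay below all of them. The mean fell from 398 ± 12.2 (SD, n = 3) to 178 ± 40.4 in V3, a log2 difference of -1.18 (SE 0.173, limma adjusted p = 0.00131). In V2 it went from 393 ± 49.5 to 414 ± 50.6, a difference of 0.08 (95% interval -0.31 to 0.46, limma adjusted p = 0.79). At 5 d V3 was lower by 2.33-fold, a log2 difference of -1.23 (limma adjusted p = 0.000857), and the interaction was -1.26 (SE 0.244, limma adjusted p = 0.0171). The interaction was not called by edgeR's quasi-likelihood test on recovered reads with all zeros as deposited (-1.19, adjusted p = 0.0568). DESeq2 on the same reads called it.

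RAX1, a MYB gene that promotes early axillary meristem formation in Arabidopsis thaliana, had few reads in every group. Its normalized counts were 25.6, 40.2 and 23.8 in V2 at 0 d, where V3 held 28.7, 18.2 and 30.7. After 5 d V2 held 33.0, 34.7 and 33.2, and V3 held 6.82, 11.6 and 12.2. The V3 libraries at 5 d lay below all others. V2 at 0 d overlapped both V3 at 0 d and V2 at 5 d, which lay apart from each other. The V3 libraries at 5 d rested on 7 to 13 recovered reads each, which limits their precision. The mean fell from 25.9 ± 6.69 (SD, n = 3) to 10.2 ± 2.94 in V3, a log2 difference of -1.27 (SE 0.273, limma adjusted p = 0.00931). This fall was not called by edgeR on recovered reads (-1.31, adjusted p = 0.062), while DESeq2 on the same reads called it. In V2 the means were 29.8 ± 8.98 and 33.6 ± 0.899, a difference of 0.20 (95% interval -0.41 to 0.82, limma adjusted p = 0.63). At 5 d V3 was lower by 3.30-fold, a log2 difference of -1.67 (limma adjusted p = 0.00175). The interaction of -1.47 was not called (limma adjusted p = 0.0513), and it was called when V2 0 d replicate 2 or V3 0 d replicate 2 was left out (-1.70 in both, limma adjusted p = 0.0312 and 0.0341).

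RAX2, the second MYB gene of axillary meristem formation, moved in opposite directions in the zones. Its normalized counts were 64.8, 57.2 and 83.8 in V2 at 0 d, where V3 held 29.7, 61.5 and 73.5. After 5 d V2 held 223, 175 and 137, and V3 held 11.7, 21.1 and 22.5. The zones overlapped at 0 d, and at 5 d the V2 libraries lay above all others and the V3 libraries below all others. The V3 libraries at 5 d rested on 12 to 24 recovered reads. In V2 the mean rose from 68.6 ± 13.7 (SD, n = 3) to 179 ± 42.9, a log2 difference of 1.36 (SE 0.372, limma adjusted p = 0.029). In V3 it fell from 54.9 ± 22.6 to 18.4 ± 5.87, a log2 difference of -1.48 (SE 0.372, limma adjusted p = 0.0189). The difference between zones at 5 d was -3.23 (95% interval -4.07 to -2.39, limma adjusted p = 0.000333), and the interaction was -2.84 (SE 0.526, limma adjusted p = 0.0141).

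Both changes of RAX2 over time lost their call when some single libraries were left out, and kept their direction. Their size then ran from 1.18 to 1.53 in V2 and from -1.86 to -1.20 in V3. The difference between zones at 5 d and the interaction were called whichever library was left out. The rise in V2 was not called without V2 0 d replicate 1, V2 0 d replicate 2, V2 5 d replicate 1 or V2 5 d replicate 2 (1.18 to 1.36, limma adjusted p = 0.0610, 0.0814, 0.0957 and 0.0729). The fall in V3 was not called without V3 0 d replicate 2, V3 0 d replicate 3 or V3 5 d replicate 1 (-1.35, -1.22 and -1.20, limma adjusted p = 0.0516, 0.0635 and 0.0676). With edgeR on recovered reads neither was called (adjusted p = 0.0731 in V2 and 0.05004 in V3). DESeq2 on the same reads called both.

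Leaving out V2 0 d replicate 3, the library with fewer reads and more zeros, ended no call of the 5 genes. Over time in V2, CUC1 then had a log2 difference of -1.10, CUC3 -1.10 and RAX2 1.51 (limma adjusted p = 0.0132, 0.0348 and 0.0409). The interaction was -1.33 for CUC1, -1.18 for KNAT6 and -2.99 for RAX2 (limma adjusted p = 0.0368, 0.0364 and 0.0218). Between zones at 0 d the 5 genes ran from -0.33 to -0.05, still with 0 called. Whether reads of close relatives such as CUC2 or KNAT2 enter these counts was not tested.

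**Figure D2:**
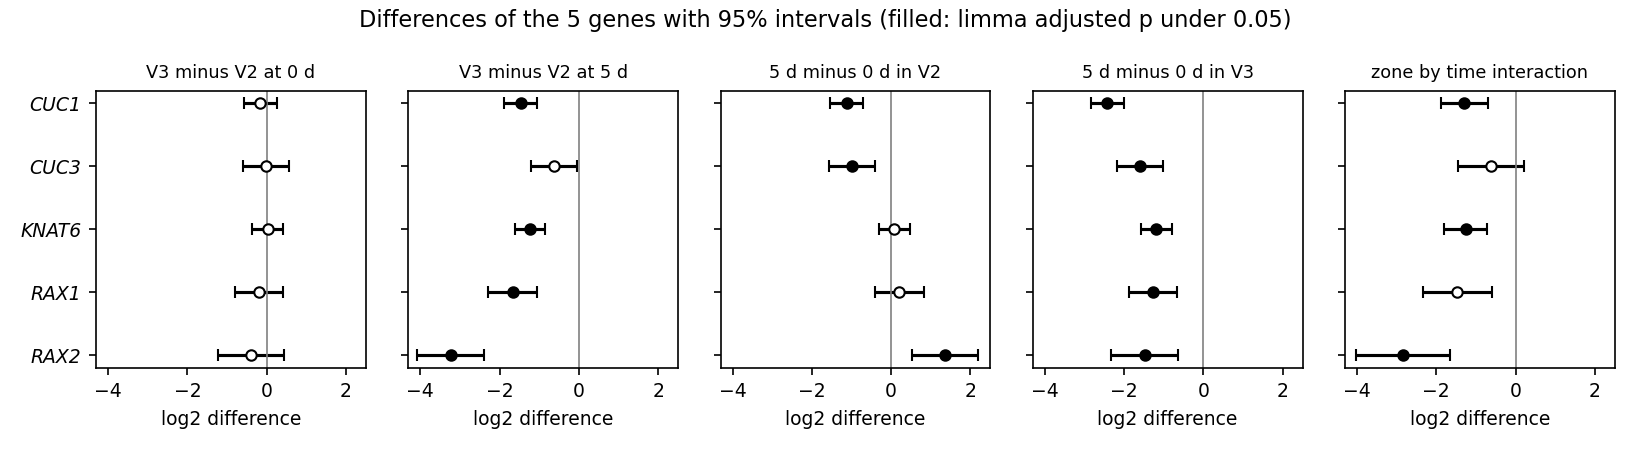
Log2 differences (x axis) of the 5 genes with unadjusted 95% intervals from limma, 1 panel per comparison; filled points have an adjusted p under 0.05. The 5 genes lie near 0 at 0 d, 4 of 5 are called lower in V3 at 5 d, all 5 are called lower over time in V3, and RAX2 alone is called higher over time in V2.

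Between zones at 0 d, 0 of the 5 genes had an unadjusted p under 0.05 in limma, and edgeR and DESeq2 on recovered reads also called 0. Their log2 differences ran from -0.40 for RAX2 (95% interval -1.23 to 0.44) to 0.03 for KNAT6 (95% interval -0.36 to 0.41), so that a change of the size seen at 5 d lay outside both intervals. The comparisons share groups: V3 at 5 d enters 3 of the 5 counts given above and V2 at 5 d the same number, so they are not separate evidence. The authors' tables name these genes for some of the same contrasts, and nothing is read from the shares.

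The median log2 difference of the 5 genes was -1.47 between zones at 5 d (-0.04 over all genes tested), -1.48 over time in V3 (-0.02), 0.08 over time in V2 (0.00) and -0.17 between zones at 0 d (-0.03). The authors listed all 5 over time in V3, and all but CUC3 between zones at 5 d, at absolute log2 fold changes above 1. Medians far from 0 there follow from how the genes entered, and nothing is read from them. The 3 libraries of 1 group lay wholly apart from those of the other for 4 of the 5 genes between zones at 5 d, 5 over time in V3, 3 over time in V2 and 0 between zones at 0 d. Among all genes without a contradicted zero the share lying apart was 56.0%, 40.6%, 47.6% and 29.2%. The same genes lay apart by FPKM, a level scaled to gene length and library depth, in each comparison.

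In the authors' deposited tables, which list genes with an absolute log2 fold change above 1, RAX2 had -3.28 between zones at 5 d, RAX1 -1.72, CUC1 -1.49 and KNAT6 -1.23. The authors' deposited table for V3 over time listed CUC1 at -2.46, RAX2 at -1.58, CUC3 at -1.56, RAX1 at -1.34 and KNAT6 at -1.17. For V2 over time the authors' deposited table listed RAX2 at 1.38 and CUC1 at -1.12, and for the zones at 0 d none of the 5.

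Per length, KNAT6 was the most abundant of the 5 transcripts in every group, with mean FPKM of 18.8 and 16.2 at 0 d (V2, then V3) and 19.4 and 7.93 at 5 d. CUC3 came second, at 11.7, 11.5, 6.04 and 4.26 FPKM in the same order. RAX2 stood at 2.35, 1.5, 3.59 and 0.855 FPKM, CUC1 at 1.85, 1.66, 0.920 and 0.443, and RAX1 at 1.1, 0.978, 1.25 and 0.374. The place of CUC1 differed between the measures: it had normalized counts near those of CUC3 but a far lower FPKM. CUC1 had a median of 174 normalized counts per FPKM over the 12 libraries, against 21.4 to 30.1 in the other 4 genes.

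For RAX2 the 2 measures gave the same directions and different sizes. Its FPKM were 2.47, 1.91 and 2.67 in V2 at 0 d, where V3 held 0.984, 2.19 and 1.32. After 5 d V2 held 4.51, 3.24 and 3.02, and V3 held 0.930, 0.795 and 0.840. The rise in V2 was 2.60-fold by normalized count and 1.53-fold by FPKM. Between zones at 5 d, V3 was lower 9.69-fold by normalized count and 4.20-fold by FPKM. The fall in V3 over time was 2.98-fold and 1.75-fold. Its normalized counts per FPKM ran from 12.6 to 55.8 over the libraries, against 22.6 to 30.9 for RAX1. CUC1 in V3 fell 5.52-fold by normalized count and 3.74-fold by FPKM, and at 5 d it was lower in V3 than in V2 by 2.82-fold and 2.08-fold. What sets the measures apart was not tested.

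**Figure D3:**
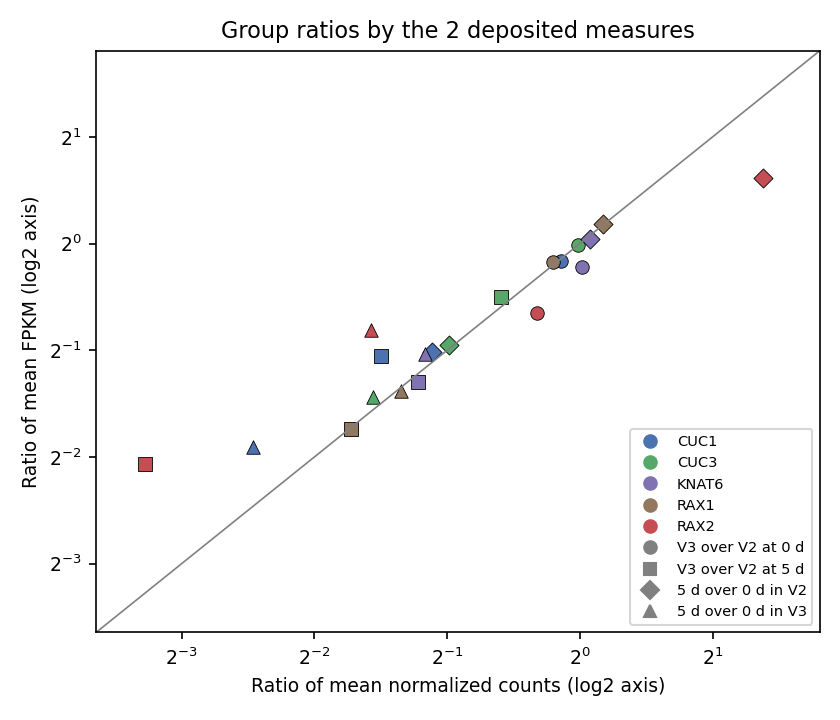
Ratio of group means by normalized count (x axis, log2 scale) against the same ratio by FPKM (y axis, log2 scale) for the 5 genes in 4 comparisons, with the line of equal ratios. RAX2 lies off the line over time in V2 (2.60 and 1.53), over time in V3 and between zones at 5 d. CUC1 lies off it over time in V3 and between zones at 5 d, while CUC3, KNAT6 and RAX1 lie nearer to it.

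Ordered by mean normalized count, V2 and V3 at 0 d were neighbours at the top for CUC1 and CUC3 and did not differ beyond their spread. V2 at 5 d came next, apart from the 0 d groups for both genes. V3 at 5 d was last, apart from V2 at 5 d for CUC1 and overlapping it for CUC3. For KNAT6 and RAX1 the order was V2 at 5 d and then both 0 d groups, each overlapping its neighbour, with V3 at 5 d apart below. For RAX2 only the 0 d groups overlapped as neighbours.

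Across the 12 libraries the 5 genes were most alike in the pair KNAT6 and RAX1, with a Pearson r of 0.94 on log2(normalized count + 1), followed by CUC1 and CUC3 at 0.89. RAX2 and CUC3 were least alike at 0.27. These values describe libraries that share 4 groups, and carry no test. The search covered 1221 genes with a symbol, no contradicted zero and a mean of at least 10, all listed as changed by the authors. Among them, the patterns nearest to CUC1 were those of PA200, a proteasome activator, NF-YC2, a nuclear factor Y subunit, and ACA8, a calcium pump (each r = 0.96). Nearest to CUC3 were WRKY13 (0.95), PME1 (0.94), annotated as a pectin methylesterase inhibitor, and the homeobox gene HB40 (0.94). Nearest to KNAT6 were LDAP1, a lipid droplet protein, the F-box gene UFO, and OFP7 of the ovate family (each r = 0.97). Nearest to RAX1 were LDAP1 (0.96), KNAT6 (0.94) and OFP7 (0.93). Nearest to RAX2 were the flowering repressor SVP (0.96), TPS11, of the trehalose phosphate synthase family (0.95), and the F-box gene KMD4 (0.94).

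Of 46 other loci listed for boundary, meristem and bud arrest functions, 5 were paired with a gene: TCP2, DRNL, SPL15, BOP2 and LSH3. None of the 7 stem cell loci and none of the 2 bud arrest TCP loci was paired, so those genes are not analysed here and the buds could not be checked against them. Between zones at 0 d, 0 of the 5 were called by limma, edgeR called 0, and 2 had an unadjusted limma p under 0.05: BOP2 with a log2 difference of 0.55 and DRNL with 0.86. DESeq2 on recovered reads called 1, BOP2 (adjusted p = 0.0222).

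BOP2, which in Arabidopsis thaliana acts at the base of lateral organs, and LSH3, expressed there in organ boundaries, were lower in V3 at 5 d. At 5 d BOP2 had normalized counts of 307, 257 and 329 in V2, and V3 held 155, 161 and 169, with no overlap, a log2 difference of -0.87 (SE 0.176, limma adjusted p = 0.00498). In V3 it fell over time from 321, 302 and 352, a log2 difference of -1.0 (limma adjusted p = 0.00345), and its interaction was -1.42 (limma adjusted p = 0.011). LSH3 had 1318, 1546 and 1519 normalized counts in V2 at 5 d, where V3 held 576, 498 and 621 with no overlap, a log2 difference of -1.37 (SE 0.376, limma adjusted p = 0.0193). Its normalized counts at 0 d spread widely, with 1777, 657 and 917 in V2, while V3 held 1353, 617 and 1276. No change over time was called on them (limma adjusted p = 0.358 in V2 and 0.131 in V3). The FPKM of LSH3 in V3 spread less, at 50.3, 53.1 and 51.0 at 0 d, and were lower at 5 d, at 32.2, 31.7 and 32.3, with no overlap. In V2 the FPKM were 67.3, 52.1 and 46.2 at 0 d and 65.8, 83.3 and 79.4 at 5 d, with overlap. The FPKM were not tested.

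TCP2, whose family limits CUC gene activity in Arabidopsis thaliana, went the other way. At 5 d it had 579, 608 and 530 normalized counts in V2, and V3 held 1772, 1523 and 1381, with no overlap, a log2 difference of 1.44 (SE 0.178, limma adjusted p = 0.000463). In V2 it fell over time by 0.63 on the log2 scale (limma adjusted p = 0.0329), in V3 the difference was 0.46 and not called (limma adjusted p = 0.0896), and the interaction was 1.09 (limma adjusted p = 0.0333). SPL15, a squamosa promoter binding protein-like gene, fell in both zones, with log2 differences of -0.87 in V2 and -1.07 in V3 (limma adjusted p = 0.0461 and 0.0204). DRNL, an AP2 family gene of organ founder cells, fell in V3 by a log2 difference of -1.11 (limma adjusted p = 0.039) and had -0.42 in V2 (limma adjusted p = 0.392). At 5 d SPL15 and DRNL both differed between zones by 0.18, not called (limma adjusted p = 0.654 and 0.725). Of the 5, 2 were called lower and 1 higher in V3 at 5 d, against 19.9% and 16.2% of all genes tested. Among the listed genes with a homologue, the pool from which these 5 also come, 34.7% were called lower. Nothing is read from these counts.

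**Figure D4:**
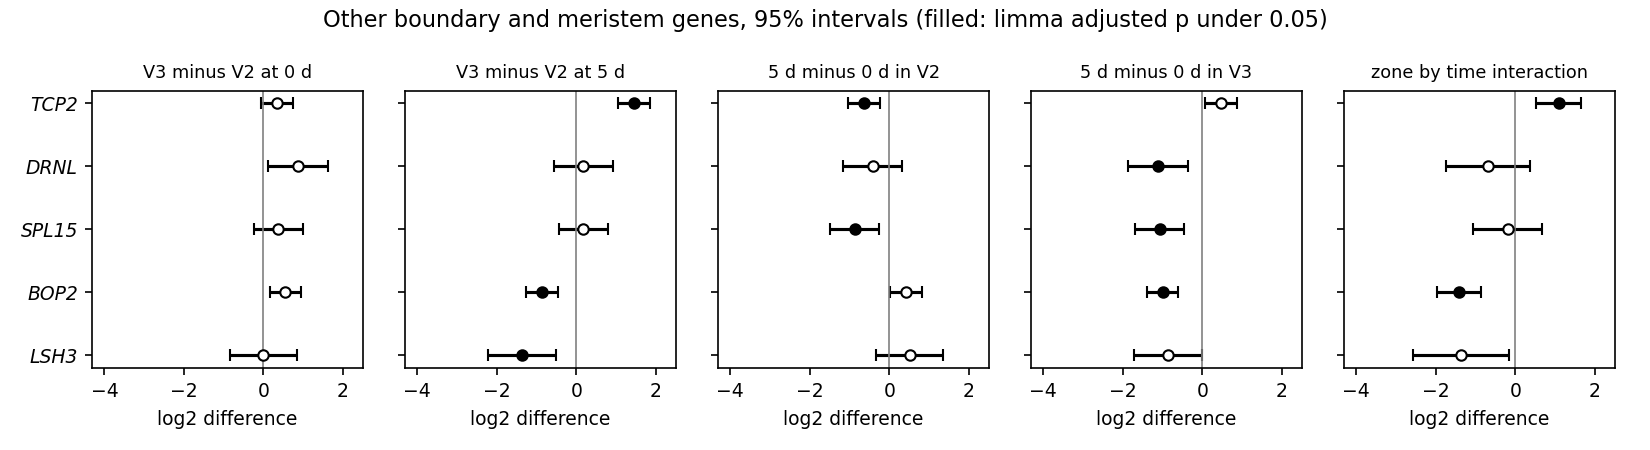
Log2 differences (x axis) of TCP2, DRNL, SPL15, BOP2 and LSH3 with unadjusted 95% intervals from limma, 1 panel per comparison; filled points have an adjusted p under 0.05. BOP2 and LSH3 are called lower and TCP2 higher in V3 at 5 d, while DRNL and SPL15 lie near 0 there and are called lower over time in V3.

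Markers of other tissue were summed in the same groups, and their single genes did not all move with the sums. The summed FPKM of the 3 paired leaf photosynthesis genes of 23 listed at 5 d was 739 to 885 in V2 but 1365 to 1534 in V3, against 709 to 823 and 770 to 993 at 0 d. Of the 2 leaf genes that could be tested at 5 d, LHCB6 was called higher in V3 (a log2 difference of 1.1, limma adjusted p = 0.0182) and RBCS3B was not called (0.81, limma adjusted p = 0.206).

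The 4 paired vascular genes of 16 at 5 d summed to 30.9 to 36.3 FPKM in V2 but 56.4 to 59.5 in V3, against 19.4 to 34.8 and 11.9 to 24.0 at 0 d. XCP1, at a normalized count of 0 in all 0 d libraries, was called higher in V3 at 5 d (2.23, limma adjusted p = 0.00236). XCP2 (1.15) and PXY (0.41) were not called there (limma adjusted p = 0.385 and 0.3), and APL could not be tested, with a mean FPKM of 2.89 in V2 and 1.77 in V3.

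The 7 paired genes of 9 for dividing cells at 5 d summed to 147 to 193 FPKM in V2 but 483 to 526 in V3, against 261 to 314 and 405 to 641 at 0 d. At 5 d 7 of 7 were called higher in V3 by limma, against 16.2% of all genes tested. They could be paired only because the authors listed them as changed, so nothing is read from this count. The 2 paired floral genes of 13, CRC and UFO, went opposite ways at 5 d, and their sums overlapped, at 9.25 to 12.3 FPKM in V2 and 6.64 to 10.4 in V3, against 10.7 to 20.2 and 21.8 to 32.0 at 0 d. CRC was called higher in V3 at 5 d, by a log2 difference of 4.55 (limma adjusted p = 0.00125). The V2 libraries there held 4, 0 and 4 recovered reads, so that size depends on the pseudocount of 1. By mean FPKM, CRC stood at 1.23 in V2 and 6.87 in V3 at 5 d. UFO, also among the genes most like KNAT6, was called lower, by a log2 difference of -2.18 (limma adjusted p = 0.000267). The part of these tissues in the differences of the 5 genes was not tested.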

How the data were processed

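PolyA RNA of lateral buds was sequenced in 12 libraries as 150 bp single-end reads. The submitters' processing notes name HISAT2, StringTie, TopHat and DESeq2; their versions and settings, and the genome, are not stated in the labels. The deposited signal is a table of normalized counts, whose headers call them counts. Its values were whole multiples of 1 step per library, and 100% lay within 0.05 of a whole read. The step was taken as the smallest value above 0 in each library, so recovery rests on that value in all 12. In V2 replicate 2 it was close to 1 at both times (1.004 at 0 d and 0.990 at 5 d). The authors deposited FPKM per library, log2 fold changes and adjusted p-values for listed genes only.

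Here limma 3.58.1 (R 4.3.3) with an intensity trend was fitted to log2(normalized count + 1) with 1 mean per group over all 12 libraries. Genes needed a mean of at least 10 and 2 usable libraries per compared group. Zeros were left out as failed where the FPKM was at least 1, where the count expected from the FPKM was at least 20, or, with no FPKM, where another library of the group held at least 20. The interaction is the change in V3 minus that in V2. edgeR 4.0.16, DESeq2 1.42.0, another scaling, other pseudocounts and filters, a replicate block and each library left out were alternatives. Both edgeR and DESeq2 used recovered reads with all zeros as deposited, so they differ from the main fit in input as well as in test. The code was tested on simulated data. The number of per-sample columns left unused was 0.

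The members and lists were chosen with earlier results of these data known. All 5 members, every paired list gene and, per member, the 3 genes of highest correlation over 12 libraries are named. No sequence or coordinate was used.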

Additional observations from a re-analysis of the deposited data

Results flagged for a closer look

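The change over time differed between the zones, by an interaction term in limma, for 3 of the 5 genes and for 2 of the 5 other boundary and meristem genes. A lower value in V3, as for the 3 genes and BOP2, was called in 3.35% of all genes tested and 7.87% of listed genes with a homologue. A higher value, as for TCP2, was called in 649 of 16043 genes tested. KNAT6 had a log2 interaction of -1.26 (adjusted p = 0.0171), with no called change in V2 and a fall in V3. RAX2 had -2.84 (adjusted p = 0.0141), with a rise in V2 and a fall in V3. CUC1 had -1.30 (adjusted p = 0.0203), with a fall in both zones that was larger in V3. BOP2 had -1.42 (adjusted p = 0.011), with a fall in V3 and 0.42 in V2 that was not called. TCP2 had 1.09 (adjusted p = 0.0333), with a fall in V2 and 0.46 in V3 that was not called. Among the markers of other tissue the interaction was also called for UFO (-2.14, adjusted p = 0.00629), CYCA1;1 (1.09, adjusted p = 0.0383) and XCP1 (adjusted p = 0.0425), the last from normalized counts of 0 in all 0 d libraries. These were 1 of 2 floral, 1 of 7 dividing cell and 1 of 3 vascular genes tested, and the 1 leaf gene tested was not called.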

How the results depend on the processing

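Over the 5 genes and 5 comparisons, 432 of 470 alternative values kept their direction and their side of the threshold, 26 lost the call, 4 gained one and 8 changed sign. Another scaling (TMM) moved the median of all genes by at most 0.05 on the log2 scale. The mean filter of 50 leaves out RAX1.

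The fall of CUC3 in V2 was not called with edgeR (-1.01), with zeros as deposited or with fewer zeros left out (-0.98 in both). The rise of RAX2 in V2 was not called with edgeR (1.35), zeros as deposited or fewer zeros left out (1.36 in both). In V3 RAX2 lost its call with edgeR (-1.54) and with only the compared groups fitted (-1.48), and RAX1 with edgeR (-1.31). The interaction lost its call for KNAT6 with edgeR (-1.19) and fewer zeros left out (-1.26), and for CUC1 with fewer zeros left out (-1.30). It gained one for RAX1 with DESeq2 (-1.51), which kept every member call that edgeR lost. Since no member has a zero, the zero settings act on members only through the shared spread and the adjustment.

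Signs changed only in values near 0 that were never called: CUC3 between zones at 0 d with edgeR (0.0022) and, with 1 library left out, 0.0084, 0.081 and 0.115; KNAT6 there (-0.053) and over time in V2 (-0.0018); and RAX1 at 0 d (0.033 and 0.031).

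With 1 library left out, CUC3 ranged from -0.13 to 0.12 at 0 d, from -0.90 to -0.41 between zones at 5 d and from -1.12 to -0.89 over time in V2. KNAT6 ranged from -0.05 to 0.12 at 0 d and from -0.00 to 0.18 over time in V2, and RAX1 from -0.33 to 0.03 at 0 d. RAX2 ranged from 1.18 to 1.53 over time in V2 and from -1.86 to -1.20 in V3. The interaction ranged from -1.46 to -1.13 for CUC1 and from -1.70 to -1.23 for RAX1.

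Genes called numbered 649 and 6247 between zones at 0 d and 5 d, 3936 and 4176 over time in V2 and V3, and 1187 for the interaction. In that order edgeR, run with zeros as deposited, called 394, 2760, 1705, 1583 and 516. In limma, fewer zeros left out gave 117, 3170, 1720, 2067 and 319. With zeros as deposited limma called 3131, 2140, 2052 and 764 in the last 4. At 0 d it called 577, of which 52.2% were higher in V3 against 27.6%. DESeq2, also run with zeros as deposited, called 2193 at 0 d and 2051 for the interaction. Only the compared groups gave 183 at 0 d. Genes without a failed zero, an alternative chosen after seeing the data, gave 4074 between zones at 5 d, 2777 over time in V3 and 791 for the interaction. With 1 library left out the counts ran from 161 to 1655, 4727 to 5329, 2033 to 3183, 2840 to 4111 and 667 to 1929.

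With the replicate number as a block 299 genes were called at 0 d and 757 for the interaction, and CUC3 over time in V2 was not called (-0.98, adjusted p = 0.0536). Deviations from the group means correlated from -0.13 to 0.10 between libraries of the same number, and 0 of 12 pairs passed 0.1. With 3 libraries per group this cannot show whether libraries of 1 number shared plants or handling, which the labels do not state.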
